A study of Pyrus pyrifolia with 2 samples.

Results

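Intronless genes of the pear genome annotation were followed in wounded fruit that had received water or yeast. They were chosen from the deposited transcript tables by structure and by locus, without regard to level. Some of the loci were assembled from reads, so whether a locus holds a single transcript can depend on expression. A gene was taken when its locus held a single transcript, when that transcript was an annotated one (prefix Pbr) and when it had 1 exon. This gave 11302 of the 45905 loci in the tables, or 33.9% of the 33330 annotated genes that are the only transcript of their locus. The other 22028 of these have 2 or more exons and served as the comparison. In all 11302 members the genomic span equalled the transcript length, which the choice of 1 exon fixes in advance. Intronless here means 1 exon in the annotated model, and an intron in an untranslated region would not be seen. All lengths of members are multiples of 3, so lengths are given as coding lengths, without untranslated regions. They ran from 150 to 5877 bases with a median of 510, against a median of 1035 for the genes with 2 or more exons.

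Sand pears (Pyrus pyrifolia) of the cultivar Shuijing were wounded. Each wound of the control received 30 μL of sterilized water, and each wound of the other group the same volume of suspended Wickerhamomyces anomalus cells, a biocontrol yeast. Both groups were kept for 3 days at 28 °C and 95% relative humidity, and RNA came from the tissue in the wound. There is 1 library for each treatment, with an estimated 19367039 read pairs for water and 16753518 for yeast. No difference below has a replicate check, no test across samples exists and no p-value was computed. In bulk tissue, fewer cells of a kind and less RNA per cell cannot be told apart. The tables pair no identifier with a gene name or product, so neither the tissue nor the function of a gene could be checked against markers.

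Most plant genes are split by introns, which are spliced out of the primary transcript. Genes without introns need no splicing, and in plants they are common in certain families, among them core histones, small auxin-responsive (SAUR) proteins, many pentatricopeptide repeat and F-box proteins and several families of transcription factors. Such genes arise by copying of spliced RNA back into the genome, by duplication of genes that already lacked introns, or by intron loss. Which members belong to which family is not given in the files. Very short single-exon models are also the class that gene prediction finds hardest to tell from chance reading frames.

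The members fall into 4 groups of coding length. Of the 11302 genes, 2719 are up to 300 bases long, 3720 are 301 to 600, 2558 are 601 to 1200 and 2305 are over 1200. The comparison genes number 1367, 4050, 7698 and 8913 in the same order. Members are therefore weighted towards short genes and the comparison towards long ones, and comparisons were made within a length group unless all lengths are named. Genes are not replicates of a treatment, and no difference between gene groups was tested. Levels are FPKM, fragments per kilobase adjusted for the size of the library, and a gene was called expressed at a mean FPKM of 1 or more over both libraries.

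The share of intronless genes expressed in the wound was greater at greater coding length. It was 11.6% up to 300 bases (316 genes), 19.5% at 301 to 600 (726), 30.1% at 601 to 1200 (770) and 39.1% over 1200 (901). Genes with 2 or more exons stood at 18.9%, 27.2%, 39.2% and 43.7%. The intronless share was lower by 7.25, 7.72, 9.10 and 4.66 percentage points. Taken over all lengths the shares were 24.0% and 37.6%, a wider gap, since the members are shorter. Counted in a single library, the members' shares were 11.6%, 19.5%, 30.5% and 39.5% with water and 11.9%, 19.6%, 30.1% and 38.6% with yeast.

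The gap was mostly to genes with several introns. Annotated genes of 2 exons were expressed in 14.4%, 19.4%, 32.5% and 33.3% of cases in the 4 length groups. Intronless genes thus stood 2.81 points lower, 0.154 points higher, 2.42 points lower and, over 1200 bases, 5.80 points higher. Genes of 3 to 5 exons were expressed in 29.5%, 31.6%, 35.1% and 38.7% of cases. With 6 or more exons the share was 52.8% at 301 to 600 bases, 50.9% at 601 to 1200 and 49.5% over 1200. Up to 300 bases and at 601 to 1200 the share was thus higher in each class of more exons. At 301 to 600 bases genes of 1 and 2 exons had nearly the same share, and over 1200 bases intronless genes and genes of 3 to 5 exons lay within 1 percentage point of each other.

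**Figure D1:**
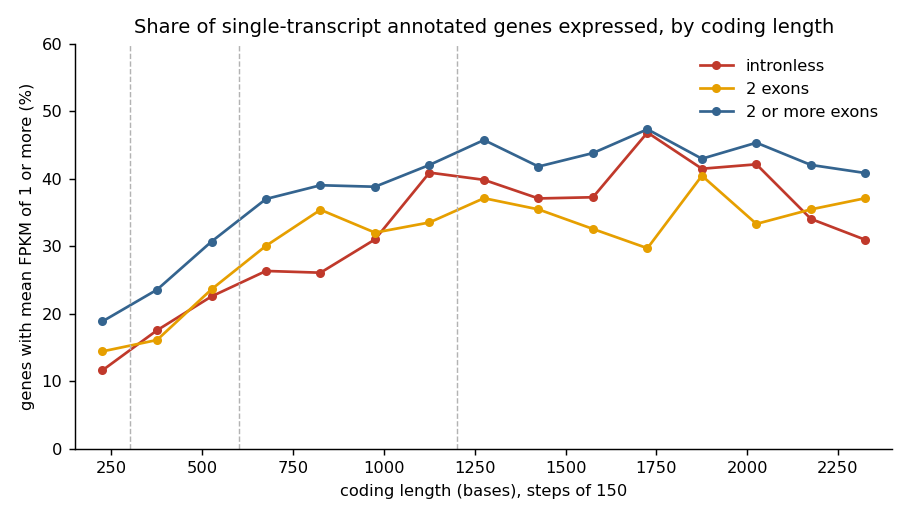
Share of genes with a mean FPKM of 1 or more (vertical axis, percent) against coding length in steps of 150 bases (horizontal axis), for intronless genes, genes of 2 exons and all genes of 2 or more exons; dashed lines mark the limits of the length groups. The intronless share climbs from 11.6% in the shortest step to 40.9% at 1051 to 1200 bases and lies between 31.0% and 46.9% in the steps beyond it.

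In steps of 150 bases, the intronless share was 17.6% at 301 to 450 bases, 26.1% at 751 to 900 and 40.9% at 1051 to 1200. From 1201 to 2400 bases it varied between 31.0% and 46.9%. Around the limits of the groups no jump was seen at 600 or 1200 bases. Members of 571 to 600 bases were expressed in 21.4% of cases and those of 601 to 630 in 21.1%. Members of 1171 to 1200 bases were at 39.2% and those of 1201 to 1230 at 41.1%. At the shortest limit the shares were 13.5% for 271 to 300 bases and 16.5% for 301 to 330.

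Many members had no reads assigned to them. A value of 0 in both libraries was listed for 68.6% of intronless genes up to 300 bases, for 59.5% at 301 to 600, for 43.9% at 601 to 1200 and for 25.7% over 1200. In the comparison genes these shares were 69.7%, 57.5%, 39.9% and 28.8%. The shares at 0 lay closer together than those of the class in between. Genes above 0 but under a mean FPKM of 1 made up 19.8%, 21.0%, 26.0% and 35.2% of intronless genes, against 11.4%, 15.3%, 20.9% and 27.4% of genes with 2 or more exons. At this depth 3 read pairs correspond to 0.516 FPKM with water and 0.597 FPKM with yeast on 300 bases, and to 0.129 and 0.149 FPKM on 1200 bases. A short gene at 0 can therefore hide a higher level than a long one. An FPKM of 1 stands for 5.81 read pairs with water on 300 bases and for 23.2 on 1200. Counted by at least 10 read pairs over both libraries instead, the intronless share over 1200 bases was 58.8% and that of genes with 2 or more exons 59.1%, so the gap in this group depends on where the line is drawn. In the 3 shorter groups the difference by read pairs, intronless minus comparison, was -7.33, -7.93 and -9.10 points.

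The choice of genes with a single transcript bears on these shares. By the loci of the transcript tables, 630 further annotated genes of 1 exon share theirs with other transcripts, and 61.1% of these genes were expressed. Among annotated transcripts of 2 or more exons that share a locus, 8381 in number, 26.8% were. The locus name also carries the outcome. Of the 3178 members whose locus has a name given on assembly from reads (prefix MSTRG), 84.8% were expressed. Of the 8124 under the annotation's own name, 19 (0.234%) were. The comparison genes show the same split, at 89.1% of 8968 and 2.19% of 13060.

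Expressed intronless genes also had lower levels. Their median mean FPKM was 4.57 up to 300 bases, 7.81 at 301 to 600, 7.08 at 601 to 1200 and 5.87 over 1200. The comparison genes had medians of 17.8, 14.95, 11.3 and 8.92 FPKM, or 3.89, 1.91, 1.60 and 1.52 times as much. The members' quartiles were at 1.99 and 14.8 FPKM in the shortest group and at 2.38 and 28.6 FPKM at 301 to 600 bases. They were at 2.91 and 24.5 FPKM at 601 to 1200 bases and at 2.37 and 14.8 over 1200. The genes of 2 exons lay between the members and the rest at medians of 10.7, 11.4, 8.52 and 7.76 FPKM. Only genes past an FPKM of 1 enter these medians, so they describe the expressed genes and not all members.

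**Figure D2:**
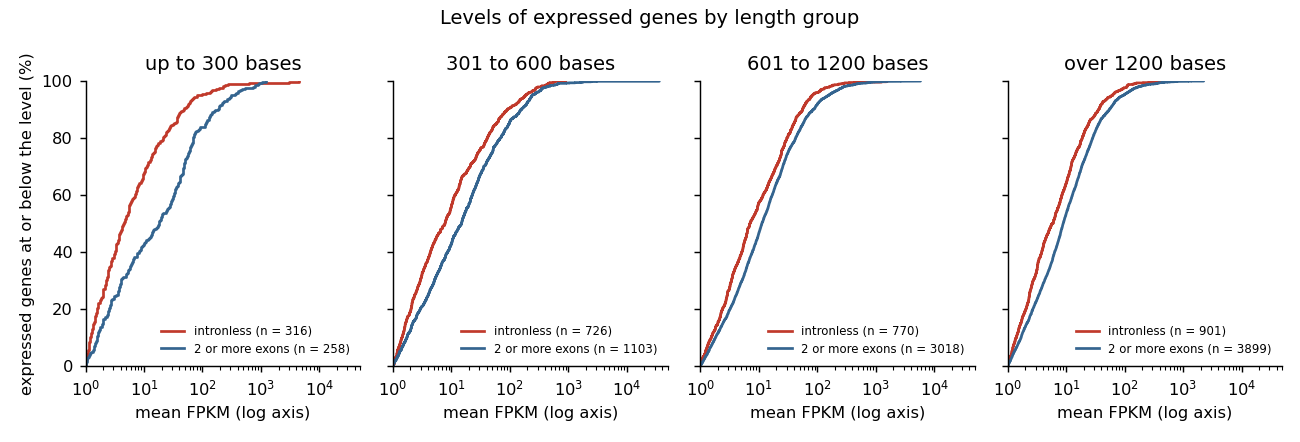
Cumulative share of expressed genes (vertical axis, percent) at or below a mean FPKM (horizontal axis, log scale), for intronless genes and genes of 2 or more exons in each of the 4 length groups. At the median the intronless curve lies to the left in every panel, most in the group up to 300 bases, where the medians are 4.57 and 17.8 FPKM.

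A mean FPKM of 100 or more was reached by 135 members. Of these 14 were up to 300 bases, 69 at 301 to 600, 31 at 601 to 1200 and 21 over 1200. As a share of all members this was 0.515%, 1.85%, 1.21% and 0.911%, against 3.07%, 3.85%, 3.23% and 2.09% of the genes with 2 or more exons. All members together held 5.92% of the library's read pairs with water and 5.64% with yeast, while they are 24.6% of the loci. Of the read pairs assigned to any transcript, their shares were 6.29% and 5.99%. At the same FPKM a longer gene collects more read pairs, and members are shorter than the comparison genes.

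The most abundant intronless gene was among the shortest. A plus-strand gene of 195 bases on chromosome 8 (14060469 to 14060663) was at 4435 FPKM with water and 4330 with yeast. It alone took 5.71% of the summed FPKM of all members with water and 5.80% with yeast. The leading gene of 301 to 600 bases, 303 bases long on the minus strand of chromosome 15 (5638469 to 5638771), was at 952.1 FPKM with water and 867.8 with yeast. At 601 to 1200 bases a gene of 816 bases on the minus strand of chromosome 12 (14210982 to 14211797) led with 1521 FPKM with water and 1636 with yeast. Over 1200 bases the leader was a gene of 1323 bases on the minus strand of chromosome 13 (2950875 to 2952197), at 587.0 FPKM with water and 571.9 with yeast. All 4 were close to level between the libraries, with log2 ratios of -0.034, -0.13, 0.11 and -0.037. Among the 135 members at 100 FPKM or above, log2 ratios spanned -0.54 to 0.90, short of 2-fold at either end.

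Ratios between the libraries are on the log2(FPKM + 1) scale, yeast minus water, and are pulled towards 0 where levels are low. The median over all 23476 expressed genes of the authors' gene table was 0.0053. Expressed intronless genes lay slightly to the lower side in the yeast-treated library. Their median log2 ratio was -0.051 up to 300 bases, -0.052 at 301 to 600, -0.087 at 601 to 1200 and -0.057 over 1200. Below 0 lay 56.6%, 58.0%, 64.8% and 63.4% of them. Genes with 2 or more exons had medians of -0.020, -0.042, -0.018 and 0.0052, with 54.7%, 57.0%, 53.8% and 48.6% below 0. The medians thus differed by -0.031, -0.010, -0.069 and -0.062. In the 2 shorter groups the sign depended on the filter: it was 0.0095 up to 300 bases when a mean of 5 FPKM was required, and 0.016 at 301 to 600 with no filter on low values. No p-value belongs to these figures, and a shift common to 1 library cannot be told apart from a response to the yeast.

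Set beside genes of 2 exons, the members differed by -0.013, 0.014, -0.018 and -0.041 in median log2 ratio, less than from all comparison genes except at 301 to 600 bases, where the sign was the opposite. The 2-exon genes had median log2 ratios of -0.038, -0.066, -0.069 and -0.016 in the 4 groups. Genes of 6 or more exons had medians of -0.022 at 301 to 600 bases, 0.017 at 601 to 1200 and 0.017 over 1200. At 601 to 1200 bases the medians ran from -0.087 with 1 exon through -0.069 with 2 and -0.030 with 3 to 5 to 0.017 with 6 or more. Over 1200 bases the order was not the same, since genes of 3 to 5 exons (-0.025) lay below genes of 2 exons.

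**Figure D3:**
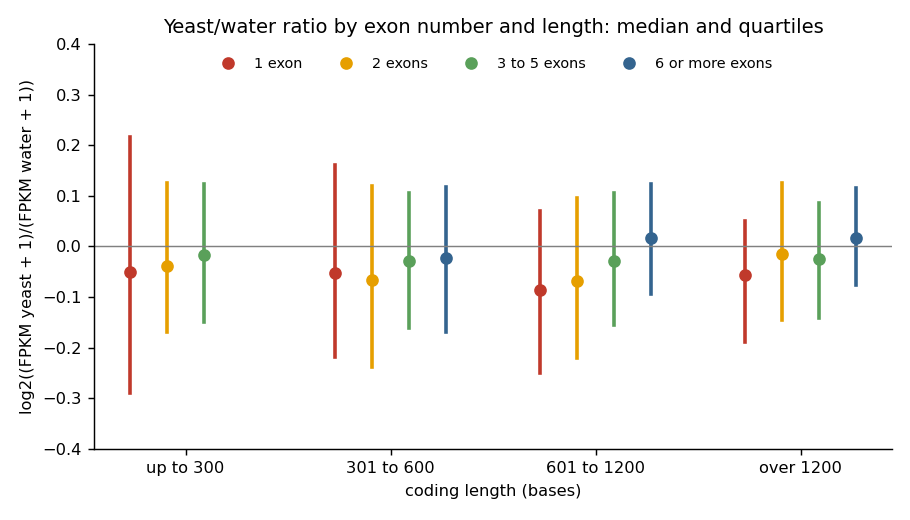
Log2 ratio of yeast over water (vertical axis, FPKM + 1) by coding length (horizontal axis) and exon number, as the median (point) and the quartiles (line) of expressed genes. Genes of 1 exon have medians between -0.087 and -0.051, genes of 6 or more exons between -0.022 and 0.017, and the quartile lines of all classes overlap.

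The lower median was seen at several levels of expression. Over all lengths, members at 1 to 5 FPKM had a median log2 ratio of -0.034 and 55.3% of them lay below 0, against 0.0082 and 49.2% for genes with 2 or more exons. At 5 to 20 FPKM the medians were -0.066 and -0.0071, and at 20 to 100 FPKM -0.10 and -0.012, with 71.4% of 549 members and 54.0% of 2146 comparison genes below 0. At 100 FPKM or more they were -0.068 for 135 members and -0.028 for 633 comparison genes. Within each length group the medians at that level lay closer together. They were -0.070, -0.083, -0.035 and -0.018 for members and -0.052, -0.077, -0.015 and -0.0049 for comparison genes. At 20 to 100 FPKM, 75.6% of 197 members of 601 to 1200 bases lay below 0, against 54.4% of 833 comparison genes, and over 1200 bases 74.8% of 147 against 49.7% of 912. At 5 to 20 FPKM the medians of members and comparison genes of 301 to 600 bases were both -0.049, and up to 300 bases they were 0.013 and 0.033. Summed read pairs, as a share of the library, did not set the members apart in every group. The members' yeast share was 0.990, 0.959, 0.951 and 0.946 times their water share in the 4 length groups. For the comparison genes the ratios were 0.976, 0.940, 1.01 and 0.995, so the members stood higher in both groups up to 600 bases and lower in both above.

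The spread of single ratios narrowed with length. The SD of the members' log2 ratios was 0.39 up to 300 bases, 0.36 at 301 to 600, 0.27 at 601 to 1200 and 0.22 over 1200. A log2 ratio within 0.5 of 0 was found for 80.7%, 86.4%, 91.4% and 96.4% of expressed members. The median number of read pairs behind an expressed member, both libraries together, was 36.1, 119.7, 235.1 and 381.5. Among members with 500 up to 5000 read pairs, the SD was 0.37 for the 23 genes up to 300 bases and 0.19 for the 359 over 1200, while the SD that counting error gives was 0.095 and 0.088 (medians). The 63 comparison genes of up to 300 bases in that class of read pairs had an SD of 0.18.

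Few members were past 2-fold, a difference of 1 or more in either direction on that log2 scale. Of the 2713 expressed members, 9 were higher and 7 lower in the yeast-treated library, together 0.590%. Of all expressed rows of the gene table, 0.822% were past 2-fold, 0.422% higher and 0.4% lower. For expressed comparison genes the share was 0.725%, made up of 0.411% higher and 0.314% lower. The members' share is near both. By length, 5 of 316 members up to 300 bases were past 2-fold, 10 of 726 at 301 to 600, 1 of 770 at 601 to 1200 and none of 901 over 1200. In the comparison genes 1.94%, 1.36%, 1.03% and 0.231% were past it in the same order, so at 601 to 1200 bases and above the members stood lower, at 0.130% and 0. Of the 16, 11 had fewer than 20 read pairs in a library, and for 5 both ends of the counting interval lay beyond 2-fold. Just inside the threshold, at 0.9 to 1 on the log2 scale in either direction, lay 5 higher and 4 lower members.

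**Figure D4:**
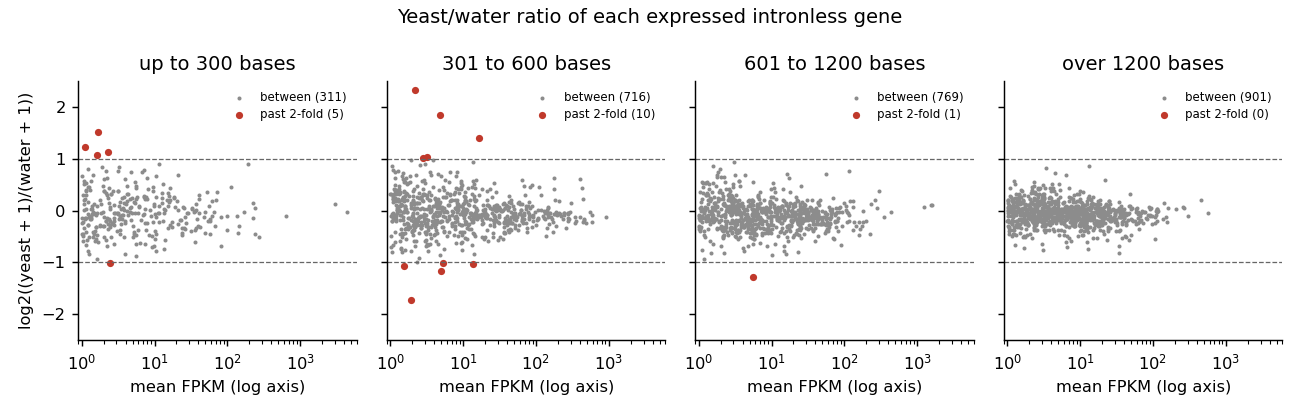
Log2 ratio of yeast over water (vertical axis, FPKM + 1) against mean FPKM (horizontal axis, log scale) for each expressed intronless gene, by length group; dashed lines mark 2-fold and red points lie past it. Of the red points, 15 of 16 are in the groups up to 600 bases, and all of them have a mean FPKM under 20.

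All 7 lower members overlapped no other locus. The lowest log2 ratio, -1.73, was that of a plus-strand gene of 462 bases on chromosome 3 (20492620 to 20493081), at 3.51 FPKM with water and 0.364 with yeast. Its yeast value rests on 3 read pairs, and the ratio was 9.64-fold lower with a counting interval of 2.79 to 45.7. The intervals are exact 95% (Clopper-Pearson) intervals from estimated read pairs and cover counting error only. Pbr038317, a gene of 789 bases on the minus strand of chromosome 11 (5398538 to 5399326), was the only one over 600 bases, with 126 read pairs at 8.26 FPKM with water and 37 at 2.80 FPKM with yeast. Its log2 ratio was -1.28. On the plus strand of the same chromosome, Pbr015424 (6398042 to 6398476, 435 bases) was at 7.36 FPKM with water and 2.73 with yeast, 2.70-fold lower (1.60 to 4.69). The most abundant of the 7 was another gene of 435 bases, on the minus strand of chromosome 10 (7026353 to 7026787). It stood at 18.6 FPKM with water and 8.55 with yeast, 2.17-fold lower (1.61 to 2.97). A gene of 594 bases on the minus strand of chromosome 6 (2043298 to 2043891) was at 2.45 and 0.638 FPKM. A gene of 288 bases on the minus strand of chromosome 3 (24816780 to 24817067) was at 3.61 FPKM with water and 1.28 with yeast, from 20 and 6 read pairs. The last, of 537 bases, lies on an unplaced scaffold and was at 7.34 FPKM with water and 3.13 with yeast, 2.35-fold lower (1.504 to 3.76).

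Of the 9 higher members, 5 overlapped another locus. The highest log2 ratio, 2.32, belonged to a gene of 327 bases on the minus strand of chromosome 16 (147651 to 147977) that overlapped none. It was at 0.0721 FPKM with water, less than 1 read pair, and at 4.36 FPKM from 24 read pairs with yeast. For its counting interval the water value was rounded to 0 read pairs. The lower end was then 6.96-fold, and the interval has no upper end because of that rounding. A gene of 345 bases on the minus strand of chromosome 11 (6681212 to 6681556), also free of overlap, was at 1.79 FPKM with water and 4.68 with yeast, 2.61-fold higher (1.27 to 5.64). The other 2 without overlap were a gene of 294 bases on chromosome 12 (1861949 to 1862242) at 0.680 and 2.52 FPKM, and a gene of 225 bases on an unplaced scaffold at 0.369 and 2.94 FPKM. They rest on 4 and 2 read pairs with water and on 12 and 11 with yeast.

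Among the 5 that overlapped, a plus-strand gene of 462 bases on chromosome 8 (7495533 to 7495994) was at 1.53 FPKM with water and 4.10 with yeast. It lies inside the span of an assembled locus on the same strand, which was at 1.32 and 0.257 FPKM, and the authors' gene table gives the latter values for it. Its direction therefore depends on which deposited table is read. A gene of 192 bases on chromosome 14 (13341139 to 13341330) lies inside a locus of 3 transcripts, with up to 19 exons, on the same strand. It rests on 1 and 6 read pairs, a ratio of 7.39-fold with a counting interval of 0.841 to 319.0. A gene of 240 bases on chromosome 15 (5922059 to 5922298), which shares 4 bases with a locus on the other strand, was at 1.08 FPKM with water and 3.55 with yeast. The remaining pair, both of 480 bases on chromosome 13, is described with the genes of that length.

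The highest and lowest ratios of each length group were also taken among members that overlap no other locus and reach a mean of 5 FPKM. Over 1200 bases the highest ratio was that of Pbr042058, a plus-strand gene of 1596 bases on chromosome 5 (23657400 to 23658995), at 9.07 FPKM with water and 17.2 with yeast. This was 1.90-fold higher (1.63 to 2.21). The lowest was that of a plus-strand gene of 1617 bases on chromosome 10 (9123414 to 9125030), at 44.3 FPKM with water and 24.6 with yeast, 1.80-fold lower (1.64 to 1.98). At 601 to 1200 bases the highest was a plus-strand gene of 690 bases on chromosome 5 (22321187 to 22321876), at 84.9 FPKM from 1134 read pairs with water and 145.6 FPKM from 1683 with yeast, 1.72-fold higher (1.59 to 1.85). At 301 to 600 bases the highest was a gene of 306 bases on the minus strand of chromosome 14 (204279 to 204584), at 5.98 FPKM with water and 10.7 with yeast. Up to 300 bases, Pbr009928 on the plus strand of chromosome 10 (22092517 to 22092813, 297 bases) was at 7.73 FPKM with water and 15.2 with yeast, 1.97-fold higher (1.36 to 2.96). The lowest of that length, a gene of 228 bases on the minus strand of chromosome 11 (17954519 to 17954746), was at 7.50 and 3.62 FPKM from 33 and 14 read pairs, 2.07-fold lower (1.06 to 4.12).

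Some exact lengths recur among intronless genes more than their neighbours do. This was examined after the values had been seen and is given as a description. A coding length of 480 bases was found 65 times, while the 10 nearest possible lengths held 31.6 genes on average. The lengths of 990 bases, with 20 genes against 8.8, and 1320 bases, with 20 against 9.6, stood out by a similar factor. Of the 20 genes of 1320 bases, 7 were expressed, with a median of 93.2 FPKM and a range of 1.02 to 209.8, and their log2 ratios lay between -0.15 and 0.048. Of the 20 genes of 990 bases, 5 were expressed, none above a mean of 5.36 FPKM. Equal length alone does not show that genes are copies of each other, and the sequences were not used here.

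Of the 65 genes of 480 bases, 39 were listed at 0 in both libraries and 16 were expressed, with a median of 76.2 FPKM. The 66 expressed genes of the nearest lengths had a median of 7.10 FPKM. Of the 16, 11 lay above 0 in log2 ratio and their median was 0.19, against -0.070 for the expressed genes of the nearest lengths. On chromosome 13, 9 of them lie within 441 kb (8941464 to 9382642), 5 up to position 8987409 and 4 from position 9349843. The span was set by the first and last of these expressed genes, so it was chosen from the values. Chromosome 13 holds 10 genes of 480 bases, and the one outside the span was not expressed. All 9 in the span were expressed and 8 were higher in the yeast-treated library, with a median log2 ratio of 0.44. Their summed level was 1071 FPKM with water and 1306 with yeast, 1.22 times as much. The 7 expressed genes of 480 bases elsewhere lay on both sides of 0, with log2 ratios from -0.28 to 0.63.

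**Figure D5:**
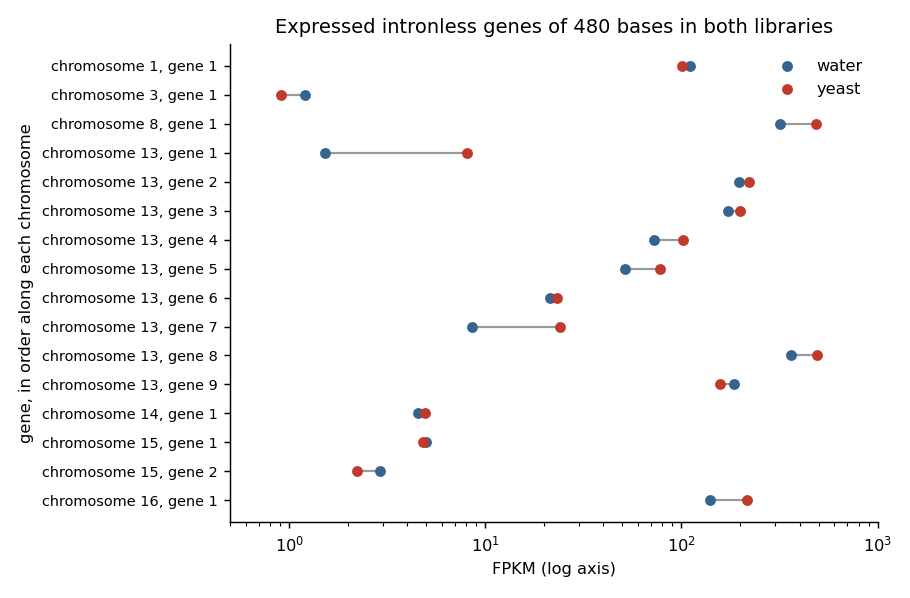
FPKM (horizontal axis, log scale) in the water-treated (blue) and yeast-treated (red) library for the 16 expressed intronless genes of 480 bases, in order along each chromosome. On chromosome 13 the red point lies to the right for 8 of 9 genes, and the genes range from 1.52 to 362.1 FPKM with water.

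In order along chromosome 13, the first gene (8941464 to 8941943) was at 1.52 FPKM with water and 8.03 with yeast, 5.29-fold higher (2.98 to 10.4), and is one of those past 2-fold. The next 4 were at 196.8, 172.1, 72.8 and 51.6 FPKM with water and at 222.3, 198.5, 102.2 and 78.1 FPKM with yeast. Their ratios were thus 1.13-, 1.15-, 1.40- and 1.52-fold. In the second stretch the first gene was at 21.4 and 23.1 FPKM, and its counting interval of 0.880 to 1.33 includes equal levels. The next (9352716 to 9353195), also past 2-fold, was at 8.53 FPKM with water and 24.2 with yeast, 2.83-fold higher (2.17 to 3.74). It was followed by the most abundant of the 9 (9365722 to 9366201), at 362.1 and 492.6 FPKM, 1.36-fold higher (1.30 to 1.42). The last was the exception, at 184.4 FPKM with water and 157.1 with yeast.

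Away from chromosome 13, the 480-base genes on chromosome 8 (8961969 to 8962448) and chromosome 16 (4638108 to 4638587) were 1.53-fold (1.46 to 1.61) and 1.55-fold (1.44 to 1.66) higher. They stood at 318.2 and 139.9 FPKM with water and at 486.8 and 216.5 FPKM with yeast. One on chromosome 1 was at 110.4 and 100.3 FPKM, and the 4 on chromosomes 3, 14 and 15 were under 5 FPKM. In the same span of chromosome 13, the 16 expressed genes with 2 or more exons had a median log2 ratio of -0.0035 and 8 of them lay above 0. Assembled 2-exon loci on the opposite strand span 5 of the 9 genes in whole or in part. The locus over 3 genes of the second stretch had a summed 96.1 FPKM with water and 175.0 with yeast, and the locus over the first 2 genes 35.0 and 58.9 FPKM. Whether strand was used in counting is not given, so reads of these loci and of the genes beneath them cannot be told apart, nor can reads of near-identical copies.

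Intronless genes were spread over the whole assembly. Of the members, 81.0% lie on numbered chromosomes and 19.0% on unplaced scaffolds, against 82.7% and 17.3% of the comparison genes. Taken over all lengths, members on scaffolds were expressed in 17.2% of cases and those on chromosomes in 25.6%, with comparison genes at 31.6% and 38.8%. Plus and minus strand held 5681 and 5621 members. Chromosome 3 had the highest share of intronless genes among its single-transcript annotated genes, 37.6%, and chromosome 13 the lowest, 28.5%. Over all lengths, the members' expressed share ran from 20.6% on chromosome 17 to 33.3% on chromosome 1. It was below that of the comparison genes on each of the 17 chromosomes. Members are shorter than the comparison genes, and these shares by place were not matched on length. The median log2 ratio of members, also over all lengths, was below 0 on each of the 17 and below that of the comparison genes on 16.

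A small number of members overlap other loci. The span of 423 (3.74%) touched another locus, and 327 lay wholly inside one, 185 of them with a locus on the same strand. Of those that overlapped, 36.4% were expressed, against 23.5% of those that did not, while of those wholly inside another locus 21.7% were. Up to 300 bases overlapping members stood at 29.3% of 123 genes, those wholly inside at 19.2% of 104 and those without overlap at 10.8% of 2596. Comparison genes of that length were at 19.0% with overlap and 18.9% without. Whether reads of the other locus contribute to these members was not tested.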

How the data were processed

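RNA of wounded pear tissue was sequenced, 1 library for each of 2 treatments. The authors deposited FPKM per gene in 1 table and, per the file headers, FPKM and coverage (mean read depth per base) per transcript for each library. Per the submitters' processing notes the tools included HISAT2 and HTSeq 0.6.1, without their roles. Not given in the sources used here are the build of the genome, the annotation release, the strand setting and the program that wrote the transcript tables. Coordinates are those of the tables, 1-based.

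Values come from the transcript tables. They equalled the gene table within 0.001 FPKM for 11274 of 11302 members, and 1 of the 28 others was past 2-fold and is described. Coverage over FPKM was constant within a library, also between length groups, and gave the library's bases. At weakly covered transcripts the covered bases were most often 300, and 14.8% (water) and 15.4% (yeast) were multiples of 150 to within 0.5 bases. Coverage times length, divided by 300, was therefore taken as the number of read pairs. No count model was used on it. The number is an estimate, since a pair that reaches past the end of a model adds fewer than 300 bases. This bears most on members up to 300 bases. Pairs carry no molecular identifiers, so intervals and floors cover counting error only.

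Loci were named as follows. In each length group the most abundant member was taken, and the highest and lowest ratio at a mean FPKM of at least 5 without overlap, with identifiers for 2 at each end; members past 2-fold and the 480-base genes were added after their values were seen. The members and all lists were chosen with earlier results of these data known. Planned lists by gene product could not be applied. Python 3.11.15, pandas 2.3.3, NumPy 2.4.6 and SciPy 1.17.1 were used, and the summaries were tested on simulated data.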

Additional observations from a re-analysis of the deposited data

How the results depend on the processing

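In all 24 recomputed comparisons of expressed shares, intronless genes stood below genes with 2 or more exons. All 24 kept the rule of a single transcript per locus, so they do not show how the gap depends on that rule. The gap moved by more than its binomial interval only over 1200 bases, from -4.66 points to -1.33 at a mean FPKM of at least 0.5, -8.41 at 5 and -0.286 by at least 10 read pairs. The difference in median log2 ratio kept its sign in 26 of 28 recomputed comparisons. Counted among the 28 is centring on the median of all genes, which shifts both gene groups alike and cannot change their difference. With a mean FPKM of at least 5 the difference became 0.0095 up to 300 bases, and with no filter on low values 0.016 at 301 to 600. Matched on length and level, the differences in these 2 groups were -0.063 and -0.019, against -0.031 and -0.010 as reported. The other settings gave -0.041 to -0.0056 up to 300 bases and -0.021 to -0.0086 at 301 to 600. At 601 to 1200 bases it was -0.043 with a pseudocount of 5 and -0.040 without a filter. Over 1200 bases it was -0.037 and -0.034 under the same settings and -0.085 where the mean had to reach 5 FPKM. The count of 9 higher and 7 lower members became 35 and 34 with a pseudocount of 0.1, 1 and 0 with a pseudocount of 5, and 15 and 13 without a filter. It was 1 and 4 when the mean had to reach 5 FPKM, and 4 members were higher without overlapping loci. Apart from the construction of each setting, the cause was not tested. For 8 named loci the settings were pseudocounts of 0.1 and 5 and centring on the median of all genes. Their ratios moved by less than their counting interval in 24 of 24 recomputed values. This is a weak check, since centring shifts every ratio by only 0.0053 and the intervals are wide where read pairs are few. With a pseudocount of 5, the log2 ratio of Pbr038317 went from -1.28 to -0.76. No paired analysis was possible because there is a single library on either side, and for the same reason none was left out.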
